A study of Homo sapiens with 6 samples.

Results

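MCF10A eGFP, the line made as the control for a potassium channel overexpressor, was compared with parental MCF10A wt cells. A gene was described when both eGFP libraries lay on the same side of the wt replicate 2 library, and it was called when both were at least 2-fold to that side in RPM (the reads of a gene scaled to the total reads of its library). Of 20802 genes, 10355 passed the filter on low values, a mean of the eGFP mean and the wt level of at least 2 RPM. Both eGFP libraries were higher than wt replicate 2 in 2874 of these genes (27.8% of those tested) and lower in 3666 (35.4%), 6540 genes in all, and in the others wt replicate 2 lay between them or level with one. At the 2-fold limit, 83 genes were called higher (0.802% of the 10355) and 59 lower (0.57%). The genes were selected on these same RPM values, so the counts are a description and no test or p-value was computed. The parental side is 1 library, and a value particular to that library cannot be told apart from a difference between the lines.

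The study asked what excess KCNJ3, which encodes the channel subunit GIRK1, does to the benign mammary epithelial cell line MCF10A, and sequenced 2 libraries each of parental cells (wt), cells stably overexpressing eGFP and cells stably overexpressing GIRK1. According to the methods, the stable lines were made with the pIRES2eGFP plasmid, which was linearized and transfected by lipofection, followed by selection with G418 and isolation of green cells by sorting. The eGFP line therefore differed from wt by the reporter, the resistance gene, the selection, the sort and its own passages in culture, which cannot be told apart here. Whether a line was 1 clone or a mixed sorted population is not stated, nor is whether replicates were separate cultures, so the spread between replicates may be technical. Expression was measured by Ion AmpliSeq Transcriptome sequencing, which copies a single short stretch of each transcript from cDNA and counts the reads that match it. The reporter eGFP was not analysed here.

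MCF10A cells are an established, non-tumorigenic line with basal features that grow as an epithelial sheet, secrete and adhere to laminin-332, and depend on epidermal growth factor. Cells of this kind produce inflammatory cytokines of the interleukin 1 family and their downstream targets, and they remodel the matrix below them with collagens and collagen-crosslinking enzymes. The reporter eGFP is a fluorescent protein, and a line that carries it alone is used to separate the effect of a gene of interest from that of making a stable line.

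The eGFP libraries held 5126930 (replicate 1) and 10233974 reads (replicate 2) and wt replicate 2 held 16040556, and 3 reads, taken as the floor of detection, corresponded to 0.585, 0.293 and 0.187 RPM. KCNJ3 had 0 reads in these 3 libraries and 217 and 355 RPM in the GIRK1 libraries. Of 20 basal mammary markers, 18 were detected in both eGFP libraries and in wt replicate 2, with KRT5 at 10660.2, 5741 and 3862 RPM, while TP63 and KRT6B had 0 reads. The summed level of those markers was between 17092 and 37953 RPM in 5 libraries and 503 RPM in wt replicate 1, and that of 16 luminal markers was between 732 and 1102 RPM in the 5 and 20078 RPM in wt replicate 1. Wt replicate 1 (2506120 reads) thus stood apart from its label and was left out, and results with it are given beside those without it.

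The eGFP libraries were not equally far from the parental library. Replicate 1 differed from wt replicate 2 by at least 2-fold in 1718 of the 10355 genes (16.6%), with an SD of 0.82 for the log2 fold across genes. Replicate 2 differed by that much in 242 genes (2.34%), with an SD of 0.39. The eGFP libraries differed from each other in 1396 genes (13.5%), so replicate 1 stood nearly as far from its own replicate as from the parent. The median log2 fold of all genes was -0.12 for replicate 1 and 0.00 for replicate 2, and a log2 fold of replicate 1 should be read against that shift. Spearman's rho between the log2 fold and the GC content of the amplicon, across genes of one pair of libraries that share their reads, was 0.22 for replicate 1 and 0.081 for replicate 2, and the part of GC content in the calls was not tested.

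**Figure D1:**
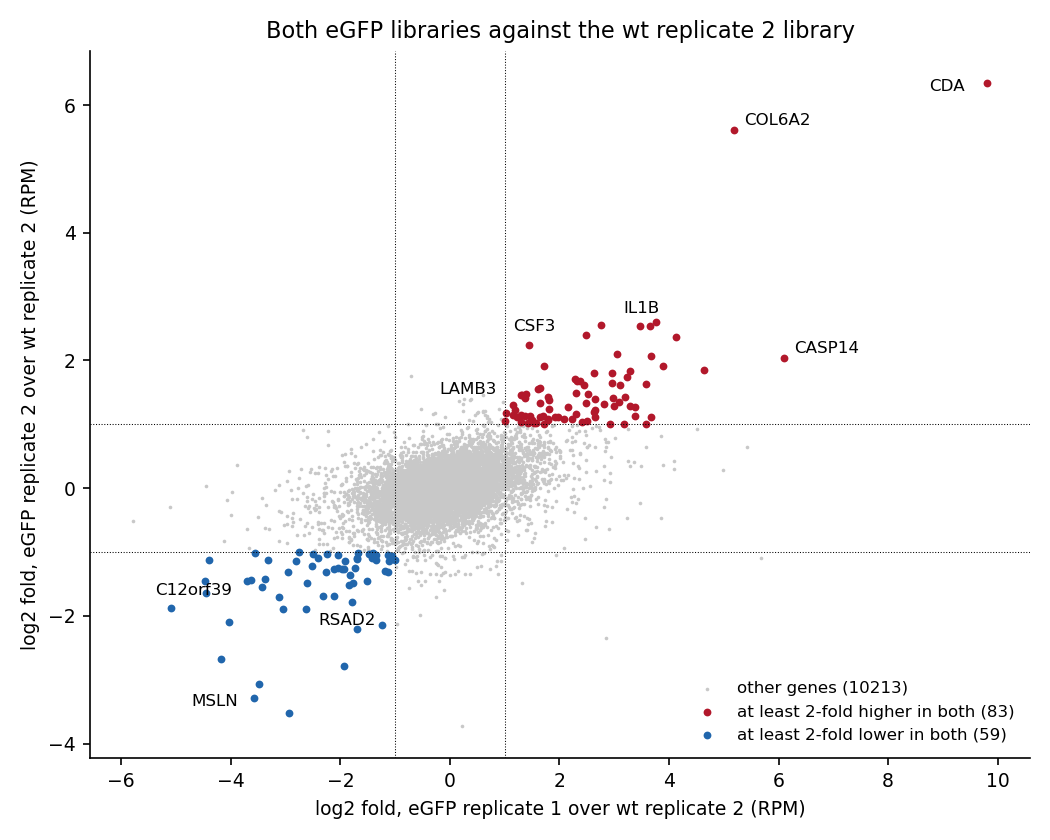
Each point is a gene over the filter, placed by its log2 fold in RPM of eGFP replicate 1 (x axis) and eGFP replicate 2 (y axis) over wt replicate 2, with dotted lines at 2-fold; red points are the 83 genes called higher and blue points the 59 called lower. The cloud is wider along the x axis (SD 0.82) than along the y axis (SD 0.39), and CDA and COL6A2 lie far from the rest.

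The called genes were mostly of low level. The mean of the groups had a median of 6.33 RPM in the higher genes and 5.75 RPM in the lower genes, against 27.8 RPM over all genes tested. Levels of at least 50 RPM were reached by 10 of the 83 higher genes and by 0 of the 59 lower genes, whose highest mean was 28.9 RPM. The median log2 fold of the higher genes was 2.38 in replicate 1 and 1.34 in replicate 2, and that of the lower genes was -2.11 and -1.30. Replicate 1 was the farther library in 71 of 83 higher and 51 of 59 lower genes, and in 7596 of all 10355 genes tested. The gap between the eGFP libraries was smaller than the distance from wt replicate 2 to the nearer of them in 61 of 83 higher and in 42 of 59 lower genes, and in 22.0% of all genes tested, a share the rule itself raises.

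The same genes in the other libraries were not used by the rule. In the GIRK1 libraries, which share wt replicate 2 as the reference, the 83 higher genes had median log2 folds of -0.00 and -0.15, and the 59 lower genes had -0.26 and -0.34. By the same rule, 233 genes were higher in both GIRK1 libraries (2.24% of 10389 tested) and 187 were lower (1.8%). Taken singly, the GIRK1 libraries differed from wt replicate 2 by at least 2-fold in 6.92% and 7.25% of the genes tested for eGFP. The shares for eGFP replicates 1 and 2 were 16.6% and 2.34%, so a count that needs both libraries also depends on how alike the replicates are. Against wt replicate 1 as well as wt replicate 2, 44 of the 83 higher genes were still past 2-fold in both eGFP libraries, 58 were still on the same side, and 28 had 0 reads in wt replicate 1. Of the 59 lower genes, 26 were still past 2-fold, 31 were on the same side and 9 had 0 reads in wt replicate 1. Over all 10355 genes tested, 445 had 0 reads there. A called gene at 0 there stays on the higher side and cannot stay on the lower side. At any size, 1341 genes were higher and 1902 lower than both wt libraries (10868 tested), against 2874 and 3666 for wt replicate 2 alone.

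CDA, which encodes cytidine deaminase of pyrimidine salvage, stood farthest apart. It had 859 and 156 reads in the eGFP libraries and 0 reads in each of the wt and GIRK1 libraries, so the groups did not overlap. The levels were 167.5 and 15.2 RPM, 91.4 ± 107.7 RPM on average (SD, n = 2). Set against the floor of 3 reads in wt replicate 2, CDA was 896-fold higher in replicate 1 and 81.5-fold higher in replicate 2. These are ratios to the floor and not lower bounds of the fold. The gene lies on the forward strand of chromosome 1, from 20588948 to 20618908 (GRCh38, GENCODE).

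COL6A2, which encodes a chain of collagen VI, came next. It had 35 and 94 reads in the eGFP libraries (6.83 and 9.18 RPM), 1 read in wt replicate 2 and 1 read in each GIRK1 library. The ratio to wt replicate 2, of the reads as counted and not set to the floor, was 110 in replicate 1 (95% exact counting interval 18.4 to 4447) and 147 in replicate 2 (25.8 to 5881), so the size of the ratio is known only within that range, and with the floor of 3 reads it was 36.5 in replicate 1 and 49.1 in replicate 2. Wt replicate 1, the library with a luminal profile, had 6.38 RPM, just below the lower of the eGFP libraries. COL6A1, the neighbouring tested gene on chromosome 21 and another chain of the same collagen, was called as well, at 4.24 RPM in wt replicate 2 and 26.5 and 9.87 RPM in the eGFP libraries. COL6A3, the remaining classical chain, had 0 reads in all 6 libraries.

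IL1B, which encodes the pro-inflammatory cytokine interleukin 1 beta, was also among the 10 genes with the largest smaller fold, the fold of the eGFP library nearer to wt. Its levels were 17.1 RPM in wt replicate 2 and 190.4 and 99.4 RPM in the eGFP libraries, while the GIRK1 libraries had 4.50 and 3.77 RPM and wt replicate 1 had 0 reads. The fold was 11.1 (9.74 to 12.8) in replicate 1 and 5.82 (5.09 to 6.67) in replicate 2. Both eGFP libraries were thus above each of the other 4. Intervals here and below are exact, from the read counts at a confidence level of 95%, and cover counting error only, since amplified reads without molecular identifiers are not independent molecules.

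For the genes on which the description turns, 300 bases around the annotated start (250 before and 50 after) are shown from RefSeq on GRCh38.p14, each on the gene's own strand. They are CDA (chr1:20588847-20589146, forward), COL6A2 (chr21:46097862-46098161, forward), IL1B (chr2:112836730-112837029, reverse) and CHI3L1 (chr1:203186655-203186954, reverse), the last of which was lower in the eGFP libraries. Capitals mark the letters TATAAA, searched on both strands.
CDA: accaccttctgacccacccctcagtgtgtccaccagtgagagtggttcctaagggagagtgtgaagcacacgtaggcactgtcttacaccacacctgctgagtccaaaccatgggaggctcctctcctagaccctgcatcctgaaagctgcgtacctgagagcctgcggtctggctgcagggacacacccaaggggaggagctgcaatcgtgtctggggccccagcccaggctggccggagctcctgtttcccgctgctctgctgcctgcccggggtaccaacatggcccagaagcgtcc
COL6A2: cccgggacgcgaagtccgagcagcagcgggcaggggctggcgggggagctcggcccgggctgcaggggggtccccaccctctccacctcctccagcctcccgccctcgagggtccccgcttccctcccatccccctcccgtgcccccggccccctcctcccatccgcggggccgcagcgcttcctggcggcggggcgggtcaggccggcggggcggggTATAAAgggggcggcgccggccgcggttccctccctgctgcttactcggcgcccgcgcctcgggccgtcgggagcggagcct
IL1B: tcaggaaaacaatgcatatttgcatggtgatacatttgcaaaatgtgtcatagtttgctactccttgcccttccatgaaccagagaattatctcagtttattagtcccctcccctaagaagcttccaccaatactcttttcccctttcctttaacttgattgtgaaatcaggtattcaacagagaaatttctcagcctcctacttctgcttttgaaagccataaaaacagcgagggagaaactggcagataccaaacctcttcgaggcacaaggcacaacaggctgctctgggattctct
CHI3L1: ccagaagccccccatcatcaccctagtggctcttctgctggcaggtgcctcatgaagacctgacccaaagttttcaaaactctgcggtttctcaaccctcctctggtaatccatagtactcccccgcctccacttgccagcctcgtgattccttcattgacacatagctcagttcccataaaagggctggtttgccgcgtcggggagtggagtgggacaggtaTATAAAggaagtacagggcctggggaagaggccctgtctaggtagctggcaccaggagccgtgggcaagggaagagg
TATAAA was present in the windows of COL6A2 and CHI3L1, as in 11.6% of all 34943 RefSeq windows of this length. The AP-1 letters TGANTCA, present in 7.72% of all windows, were in none of the 4. CpG dinucleotides numbered 36 in COL6A2, 8 in CDA, 7 in CHI3L1 and 2 in IL1B, against a median of 14 over all windows. These matches are descriptions of the letters. Windows were matched for 63 higher and 41 lower genes, under 80% of each set, so a comparison of the sets is void.

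Among the other 7 of the 10 largest folds, levels in wt replicate 2 were between 0.686 and 1.06 RPM. TRIML2, a tripartite motif family-like gene, had 1.06 RPM in wt replicate 2 against 14.4 and 6.45 RPM. NRG4, a neuregulin that binds ERBB4, had 0.748 RPM against 5.07 and 4.40 RPM. TM4SF19, a membrane protein with 4 transmembrane segments, had 0.810 RPM against 10.1 and 4.69 RPM. C1orf115 had 0.873 RPM against 4.88 and 4.59 RPM. INSC, an adaptor that orients the mitotic spindle, had 0.810 RPM against 14.2 and 4.20 RPM, and PGF, the placental growth factor of the VEGF family, had 0.810 RPM against 10.3 and 3.42 RPM. PLEKHO1, which has a pleckstrin homology domain, had 0.686 RPM against 5.66 and 2.93 RPM, and wt replicate 1 (3.99 RPM) lay between them. At such levels wt replicate 2 had 11 to 17 reads, and the lower bound of the fold was 2.18 for PGF and 3.53 for TRIML2 in replicate 2. The GIRK1 libraries had 3.15 and 3.58 RPM of TRIML2 and 2.70 and 3.00 RPM of TM4SF19, between wt replicate 2 and the eGFP libraries.

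**Figure D2:**
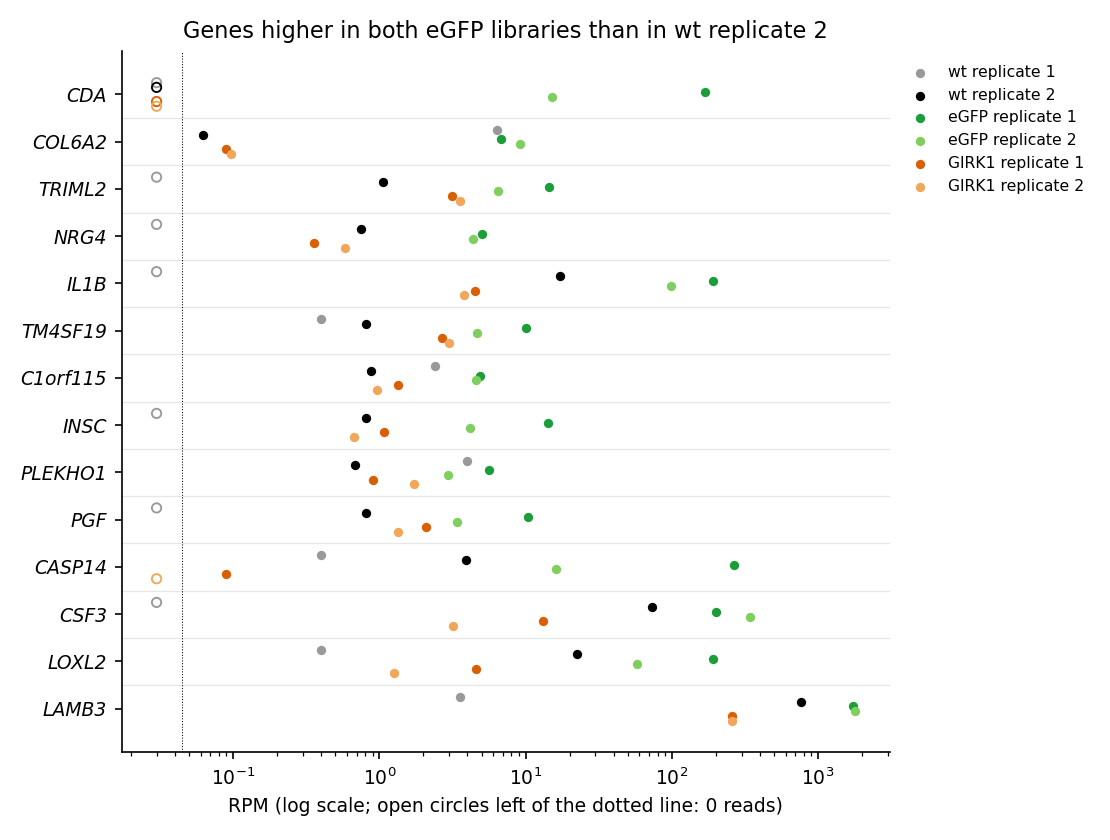
RPM on a log axis in each of the 6 libraries for the 10 genes with the largest smaller fold and the 4 further genes named at a mean of at least 50 RPM; open circles mark 0 reads. The 2 green points of each gene lie right of the black point of wt replicate 2, and those of CDA (15.2 and 167.5 RPM) and CASP14 (16.2 and 267.8 RPM) are more than 10-fold apart from each other.

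At a mean of at least 50 RPM, the 5 genes with the largest smaller folds were IL1B, CASP14, CSF3, LOXL2 and LAMB3. CASP14, a caspase of keratinocyte terminal differentiation, had 3.93 RPM in wt replicate 2 and 267.8 and 16.2 RPM in the eGFP libraries. Its fold was 68.2 (53 to 89.2) in replicate 1 and 4.13 (3.07 to 5.61) in replicate 2, a size that differed widely between the libraries. CSF3, the granulocyte colony-stimulating factor, had 72.9 RPM in wt replicate 2, 199.5 and 344.5 RPM in the eGFP libraries, and 13.2 and 3.19 RPM in the GIRK1 libraries. It was one of 12 higher genes with the larger fold in replicate 2, at 4.72 (4.42 to 5.05) against 2.74 (2.51 to 2.98). LOXL2, which crosslinks collagen, had 22.4 RPM in wt replicate 2 and 191 and 57.5 RPM in the eGFP libraries, and the GIRK1 libraries had 4.59 and 1.26 RPM.

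LAMB3, the beta 3 chain of laminin-332, differed by a small fold that the eGFP libraries shared. It had 768 RPM in wt replicate 2 and 1747 and 1790.1 RPM in the eGFP libraries, 1768 ± 30.7 RPM on average (SD, n = 2). The folds were 2.27 (2.21 to 2.34) and 2.33 (2.28 to 2.38), from at least 8955 reads in every library of the comparison. The GIRK1 libraries had 258 and 259.9 RPM, below wt replicate 2. LAMA3, the alpha 3 chain of the same laminin, was not called, at 12.1 RPM in wt replicate 2 and 17.0 and 15.1 RPM in the eGFP libraries. Of 12 genes of laminin-332 and the hemidesmosome, 9 were on the higher side in both eGFP libraries and 1 on the lower side, against 27.8% and 35.4% of all genes tested.

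The genes lower in the eGFP libraries were led by MSLN, which encodes the surface glycoprotein mesothelin. It had 20.9 RPM in wt replicate 2 and 1.76 and 2.15 RPM in the eGFP libraries, while the GIRK1 libraries had 56.8 and 42.1 RPM. The wt level was 11.9 times (6.19 to 26.2) that of replicate 1 and 9.72 times (6.31 to 15.7) that of replicate 2, with intervals that overlapped. MSLN lies on the forward strand of chromosome 16, from 760762 to 768865. CHI3L1, a secreted chitinase-like glycoprotein, had 105 reads in wt replicate 2 (6.55 RPM) and 2 and 8 reads in the eGFP libraries. By the reads as counted, its wt level was 16.8 times (4.53 to 140) that of replicate 1 (11.2 times with the floor) and 8.37 times (4.10 to 19.9) that of replicate 2.

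In most of the other leading lower genes the eGFP libraries had few reads. FAM129A, a stress-responsive gene also called Niban, had 171 reads in wt replicate 2 and 0 and 17 in the eGFP libraries. It was 18.2-fold lower in replicate 1, as a ratio to the floor, and 6.42 times lower in replicate 2. GLDC, the glycine decarboxylase of the glycine cleavage system, had 154 reads in wt replicate 2 and 1 and 23 in the eGFP libraries, a wt level, by the reads as counted, 49.2 times (8.70 to 1957) that of replicate 1 (16.4 times with the floor) and 4.27 times (2.75 to 6.94) that of replicate 2. C8orf47 had 72 reads against 2 and 4, and SUSD2, a membrane protein with a sushi domain, had 108 against 9 and 10. The lower bounds of the wt level over that of replicate 2 ran from 2.75 (GLDC) to 4.30 (C8orf47) in these 4 genes, which were all read in both GIRK1 libraries.

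IGF2BP3 and C12orf39 had higher levels than FAM129A, GLDC, C8orf47 and SUSD2 in wt replicate 2 and in eGFP replicate 2. The value of C12orf39 in eGFP replicate 1 still rests on few reads. IGF2BP3, an oncofetal mRNA-binding protein, had 22.4 RPM in wt replicate 2, 2.73 and 6.06 RPM in the eGFP libraries, and 21.6 and 27.1 RPM in the GIRK1 libraries. C12orf39, the gene of the peptide spexin, had 39.7 RPM in wt replicate 2, 1.17 and 10.8 RPM in the eGFP libraries, and 23 and 22.5 RPM in the GIRK1 libraries. Both genes had 0 reads in wt replicate 1, so that the libraries labelled wt lay on either side of the eGFP libraries. ANKS1B, which encodes an ankyrin repeat protein, had 3.37 RPM against 0.975 and 0.977 RPM, nearly the same value in both eGFP libraries, and 3.06 and 3.29 RPM in the GIRK1 libraries.

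**Figure D3:**
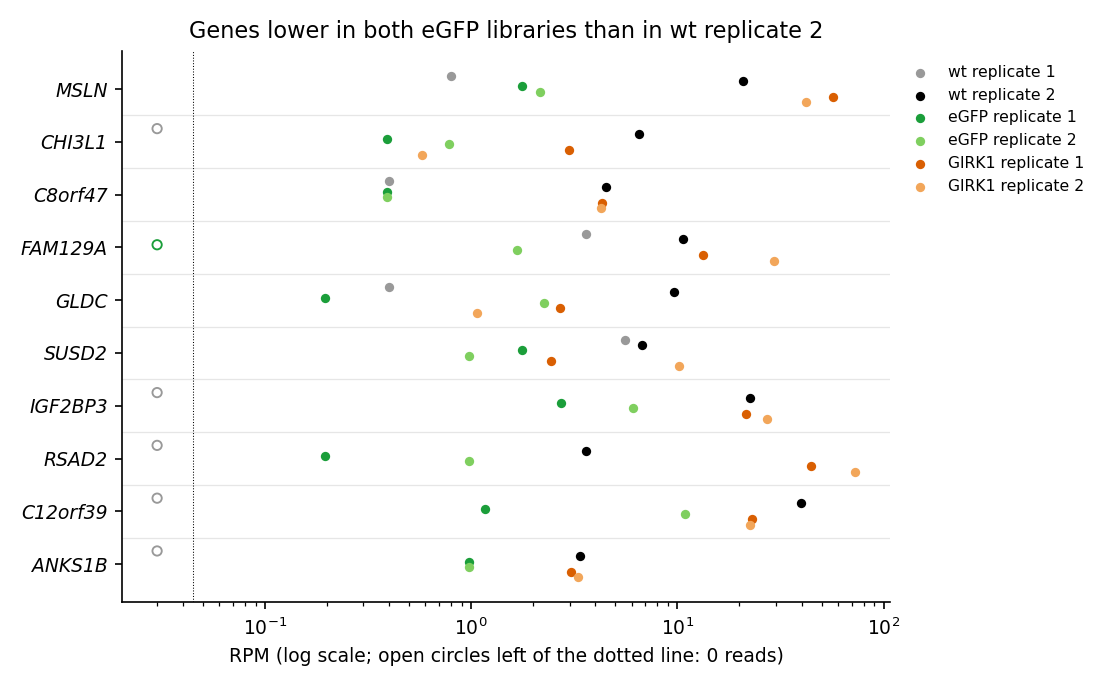
RPM on a log axis in each of the 6 libraries for the 10 genes with the largest smaller fold on the lower side; open circles mark 0 reads. The black points of wt replicate 2, between 3.37 RPM (ANKS1B) and 39.7 RPM (C12orf39), lie right of both green points in every row.

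Some genes had reads on 1 side of the comparison and none on the other. Among 11020 genes with at least 1 RPM in wt replicate 2, 16 had 0 reads in both eGFP libraries (0.145%), and 11 had 0 reads in both GIRK1 libraries. Depth differed, at 5126930 reads in eGFP replicate 1 against 11107309 and 10346572 in the GIRK1 libraries. A further 57 genes had 0 reads in eGFP replicate 1 alone and 5 in eGFP replicate 2 alone. The part of depth in these counts was not tested. The 16 genes had between 17 and 50 reads in wt replicate 2. RAB25, a small GTPase of epithelial membrane recycling, had the most, with 50 reads (3.12 RPM), and had 618 and 422 reads in the GIRK1 libraries. ADD2, the beta subunit of adducin, had 46 reads in wt replicate 2, and CDO1, the cysteine dioxygenase, had 41 against 40 and 39 in the GIRK1 libraries. Of the 16 genes, 8 were read in both GIRK1 libraries and the other 8 (ADD2, COCH, FEZ1, JAM3, PARVB, ZNF711, ZNF732 and ZNF737) had 0 reads there as well. The genes read in the GIRK1 libraries also included CXCR4, GPR63, MEIS3P1, PALMD and PDE3B, of which MEIS3P1 is a pseudogene that may share reads with its relatives.

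Wt replicate 1 moved with part of this list. It was above wt replicate 2 in 10 of the 16 genes, by more than 10 times in 5 of them, with RAB25 at 217 RPM and CXCR4 at 20.7 RPM against 1.31 RPM in wt replicate 2. Over all genes tested it was above wt replicate 2 in 48.2%, and by more than 10 times in 156. Those genes are not a like background, because none of the 16 passed the filter of 2 RPM, so none could be called. The part of wt replicate 1 in the reads of wt replicate 2 was not tested. In the opposite direction, 2 of 10528 genes with at least 1 RPM in both eGFP libraries had 0 reads in wt replicate 2 (0.019%). They were CDA and HSD11B1, the enzyme that regenerates active cortisol, which had 17 and 18 reads in the eGFP libraries and 0 in each of the other 4. HSD11B1 was below the filter as well and was not called. At the depth of wt replicate 2, the floor that stands in for 0 reads is 0.187 RPM. That library was the deepest, so the counts of the opposite directions are not a like measure.

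**Figure D4:**
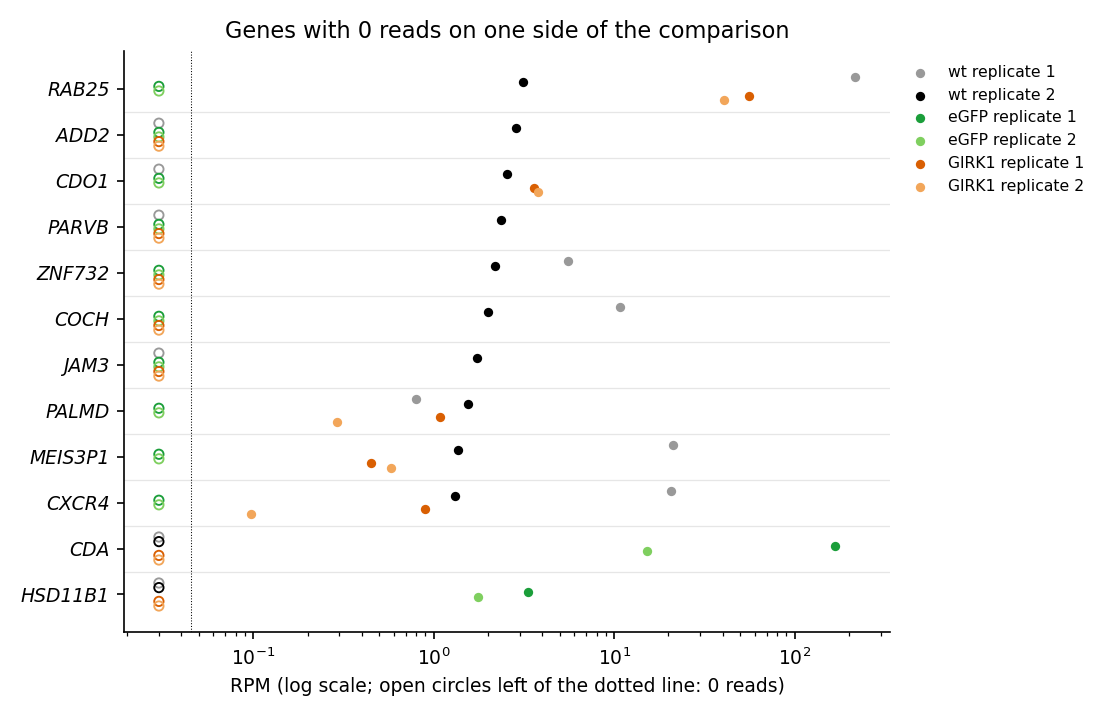
RPM on a log axis in each of the 6 libraries for the 10 genes with the most reads in wt replicate 2 among the 16 at 0 reads in both eGFP libraries, and for the 2 genes of the opposite pattern (CDA, HSD11B1); open circles mark 0 reads. The black points of the 10 genes lie between 1.31 and 3.12 RPM, and for RAB25 the points of wt replicate 1 and of the GIRK1 libraries lie further right still.

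The called genes were then read by 29 gene lists of pathways and cell types, written by hand with earlier results of these data known. The counts of their members are thus descriptions and not independent support for a theme. They are given beside the background of 0.802% called higher and 0.57% lower, and of 27.8% on the higher and 35.4% on the lower side. The list of collagen and matrix genes held the most called members, 5 of 24 tested higher and 0 lower (COL6A2, LOXL2, CCBE1, COL6A1 and THBS1). Of these, the paper names COL6A2, CCBE1 and THBS1 as lower in the GIRK1 line than in the eGFP line, from these same eGFP libraries. Both eGFP libraries were on the higher side in 16 of the 24 and on the lower side in 5, and the median log2 fold was 0.79 in replicate 1 and 0.39 in replicate 2, against -0.12 and 0.00 over all genes. CCBE1, a secreted protein of lymphatic vessel growth, had 8.10 RPM in wt replicate 2 and 45.4 and 20.5 RPM in the eGFP libraries. THBS1, the matrix glycoprotein thrombospondin 1, had 157 RPM against 425.8 and 319.8 RPM. TGFBI and SPARC were on the higher side without a call, at 1239 against 2220 and 1913 RPM and at 31.7 against 103.8 and 52.2 RPM. The GIRK1 libraries had medians of -0.31 and -0.73 for this list.

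Genes of the TGF-beta response overlapped with the matrix list. Of 21 tested, 3 were called higher (INHBA, THBS1 and LTBP2) and 0 lower. INHBA, the subunit of activin A, had 3.12 RPM in wt replicate 2 and 37.1 and 9.67 RPM in the eGFP libraries. LTBP2, a matrix protein of the family named latent TGF-beta binding proteins, had 5.11 RPM against 16.8 and 10.3 RPM. The list had 14 members on the higher and 3 on the lower side, with medians of 0.89 and 0.26.

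In the list of IL-1, chemokine and NF-kB response genes, IL1B and CSF3 were the called members, 2 of 23 higher and 0 lower. The list as a whole was divided, with 11 members on the higher and 6 on the lower side and medians of 0.55 and 0.22. IL8 had 16.7 RPM against 63.0 and 25.5 RPM and CCL20 had 80.7 RPM against 140.8 and 147 RPM, both chemokines on the higher side below the limit in 1 or both libraries. IL1A, the other interleukin 1, was not on 1 side, at 124.4 RPM in wt replicate 2 and 85.2 and 200.0 RPM in the eGFP libraries. CFB, BIRC3 and C3 were on the lower side, with CFB at 30.3 RPM against 6.63 and 15.3 RPM.

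Hypoxia and glycolysis genes were separated more in replicate 1 than in replicate 2. Of 28 tested, 4 were called higher (CA9, ADM, SLC2A3 and PFKFB4) and 0 lower, with 16 on the higher and 2 on the lower side. CA9, a carbonic anhydrase induced by hypoxia, had 6.05 RPM in wt replicate 2 and 59.3 and 14.8 RPM in the eGFP libraries, and the GIRK1 libraries had 0.900 and 0.290 RPM. ADM, the vasodilator peptide adrenomedullin, had 5.55 RPM against 44.3 and 13.5 RPM. SLC2A3, a glucose transporter, had 0.935 RPM against 9.75 and 2.05 RPM, and PFKFB4, a regulator of glycolytic flux, had 1.5 RPM against 19.1 and 3.22 RPM. The medians of the list were 1.04 in replicate 1 and 0.17 in replicate 2, and replicate 1 was far above replicate 2 in NDRG1 (191.5 RPM in wt replicate 2, 1465 and 267 RPM) and ANGPTL4 (12.7, 288 and 23.9 RPM).

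Interferon-stimulated genes were called in both directions, 2 of 30 higher (IFI27 and BST2) and 2 lower (RSAD2 and OASL), with 8 on the higher and 14 on the lower side. RSAD2, the antiviral enzyme viperin, had 58 reads in wt replicate 2 and 1 and 10 in the eGFP libraries, a wt level, by the reads as counted, 18.5 times (3.20 to 745) that of replicate 1 (6.18 times with the floor) and 3.70 times (1.88 to 8.12) that of replicate 2. OASL, a member of the oligoadenylate synthetase family, had 12.3 RPM against 2.15 and 5.28 RPM. BST2, the tethering factor of budding viruses, had 124.9 RPM against 363 and 254 RPM, and IFI27 had 0.748 RPM against 5.27 and 1.86 RPM. DHX58, a regulator of cytosolic RNA sensing that the list did not hold and that was picked after its value was seen, was called lower at 4.24 RPM against 0.975 and 1.76 RPM. The first of these eGFP values is near the floor of 0.585 RPM. In the GIRK1 libraries RSAD2 was at 44.4 and 72.7 RPM and IFI27 at 328 and 609 RPM. The medians of the list in the eGFP libraries were -0.01 and -0.29, and the first turned positive with TMM factors, DESeq2 size factors and centring on the median.

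Lists of epithelial identity held single calls. LAMB3 was the 1 called gene of 18 basal markers tested, of which 12 were on the higher and 1 on the lower side. AGR2, a protein disulfide isomerase of secretory epithelium, was the 1 called gene of 7 luminal markers tested, with 4.11 RPM in wt replicate 2 against 0.195 and 1.86 RPM, and 2516 RPM in wt replicate 1. KRT10, a keratin of suprabasal cells, was the 1 lower call of 10 keratins, at 10.5 RPM against 0.975 and 3.62 RPM, and the GIRK1 libraries had 26.9 and 58.0 RPM. In eGFP replicate 1 the level of AGR2 was below the floor of 0.585 RPM and that of KRT10 was near it. Cell junction genes (27 tested), mesenchymal genes (18) and cornified envelope genes (8) held 0 calls in either direction. VIM, the intermediate filament vimentin, had 1359 RPM against 1849 and 1366 RPM. SPRR1B, a cornified envelope precursor, lay just outside the limit at 49.8 RPM against 182 and 98.3 RPM.

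Markers of other cell types were partly read. Of 13 leukocyte and red cell markers, 9 had 0 reads in each library of the comparison, PTPRC, CD3E and HBB among them, and the summed level was 103.8 and 107.7 RPM in the eGFP libraries against 70.3 RPM in wt replicate 2. Most of that sum was LAPTM5, at 54.8 and 62.9 RPM against 47.9 RPM, and CD68, at 23.8 and 23.2 RPM against 14.9 RPM. CD14, the lipopolysaccharide coreceptor, which epithelial cells can also express, was the 1 called member, at 7.11 RPM against 21.7 and 20.9 RPM. Of 12 fibroblast markers, 6 had 0 reads in each library of the comparison, though not the same 6, with COL1A2 and PDGFRA at 0 in each, and the summed level was 47.8 and 18.1 RPM in the eGFP libraries against 26.1 RPM in wt replicate 2. DCN, the matrix proteoglycan decorin, was the 1 called member, lower at 10.2 RPM against 0.780 (near the floor of 0.585 RPM) and 3.71 RPM. Of 9 endothelial markers, 6 had 0 reads in each, and TEK and KDR were at most 2.25 RPM in the 3 libraries.

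Of 39 S-phase genes, 1 was called higher (CLSPN, a checkpoint mediator of replication, with 1.75 RPM in wt replicate 2 against 8.58 and 3.91 RPM), and 24 were on the higher and 3 on the lower side, with medians of 0.67 and 0.08. With the mean of both wt libraries as the reference, the mean log2 fold of CLSPN turned from 1.73 to -0.91, and the list had 0 higher and 6 lower calls. Of 53 genes of the G2/M phase, 0 were called, 23 were on the higher and 11 on the lower side, and the medians were 0.10 and 0.08. Sterol synthesis genes had 0 calls of 24 while 18 were on the higher and 1 on the lower side, and replicate 2 was within 2-fold of wt replicate 2 in each. Their medians were 2.01 and 0.27, with HMGCS1, the synthase that feeds the pathway, at 34.0 RPM in wt replicate 2 and 506 and 43.5 RPM in the eGFP libraries. The unfolded protein and integrated stress response list was the reverse case, with 0 calls of 29, 1 on the higher and 17 on the lower side, and medians of -1.34 and -0.11. ASNS, the asparagine synthetase, had 199.4 RPM against 31.2 and 189 RPM.

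The remaining lists gave few calls. ABCC2, an export pump of conjugates, was the 1 called gene of 17 NRF2 targets, at 4.11 RPM against 25.4 and 9.38 RPM, and the GIRK1 libraries had 18.9 and 13.6 RPM. Lists of p53 targets, YAP/TAZ targets, ERK output, metallothioneins, histones, proteases, ERBB ligands and receptors, ribosomal proteins and housekeeping genes had 0 calls. The ERBB list did not hold the ligand NRG4, which was called higher as described above. Histone genes were on the higher side in 14 of 17 and the lower side in 0, with medians of 1.06 and 0.26, and ribosomal protein genes were on the lower side in 21 of 29 and the higher side in 0, with medians of -0.31 and -0.13. HIST1H2AL and HIST1H2AH, which the histone list did not hold and which were picked after their values were seen, were called higher, at 7.17 RPM against 39.2 and 21.9 RPM and at 37.6 RPM against 176.5 and 79.8 RPM. MT2A, a metal-binding metallothionein, had 5712 RPM against 32170.3 and 10226.2 RPM. GAPDH and ACTB, used as references in other assays, had 5476 against 9856 and 7288 RPM and 3746 against 8981 and 3752 RPM. In replicate 1 the medians of cell junction genes and p53 targets, -0.09 and -0.05, turned positive with TMM factors, DESeq2 size factors and centring.

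**Figure D5:**
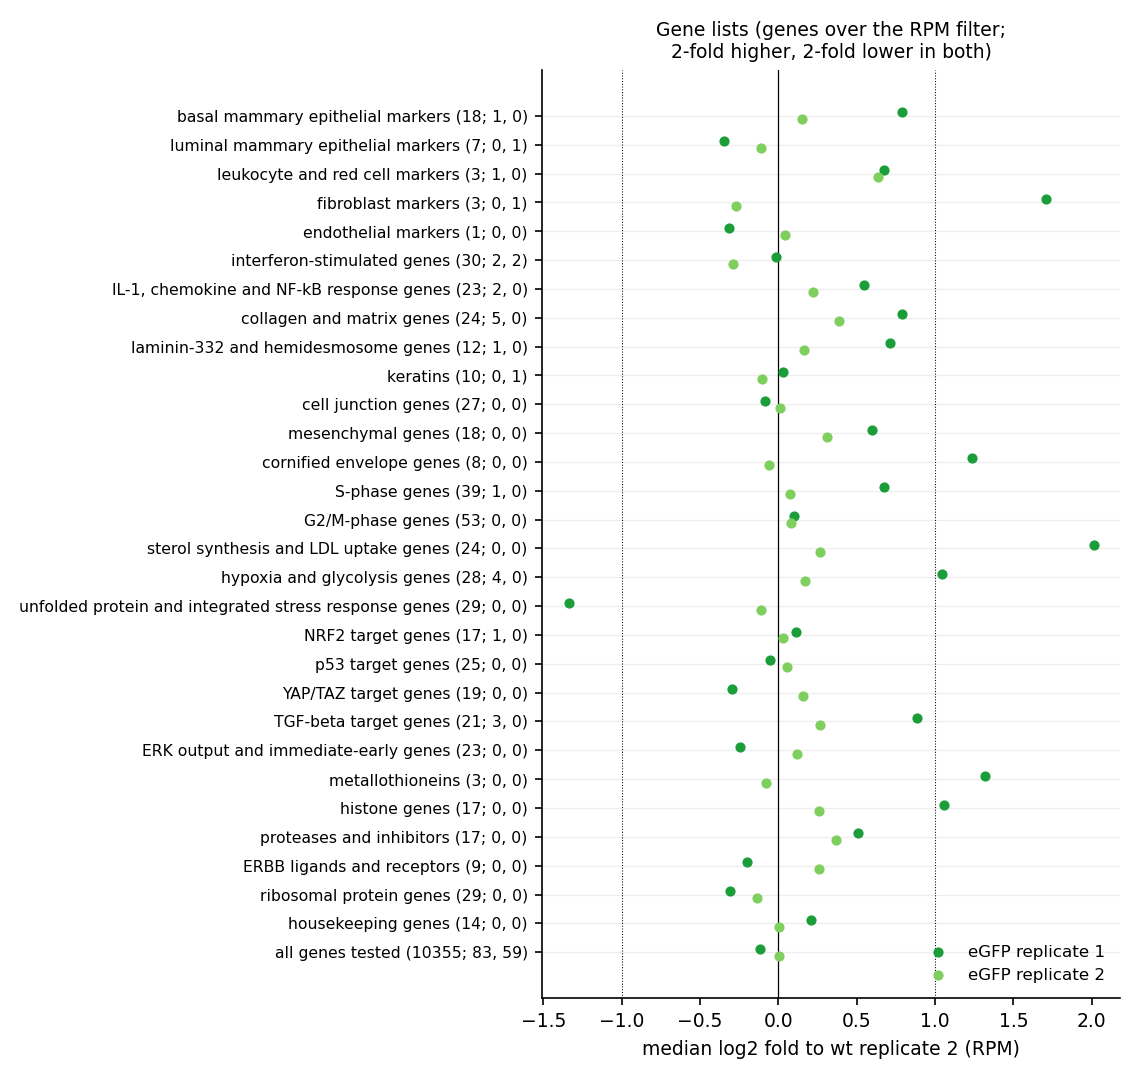
Median log2 fold in RPM of each eGFP library over wt replicate 2 for the members of each gene list over the filter, with, in brackets, the number of genes tested and the numbers called higher and lower; the bottom row is all 10355 genes tested. Replicate 1 spreads from -1.34 (unfolded protein and integrated stress response) to 2.01 (sterol synthesis), whereas every median of replicate 2 lies between -0.29 and 0.64.

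Several called genes outside the lists were chosen for mention after their values were seen. KCNJ15, an inward rectifier related to KCNJ3, had 0.810 RPM in wt replicate 2 and 20.1 and 2.93 RPM in the eGFP libraries. ECM1, a secreted glycoprotein of the skin matrix, had 1.56 RPM against 23.2 and 5.86 RPM. The receptors TREM1 and TREM2, consecutive among the tested genes of chromosome 6, were both called higher, at 2.43 RPM against 18.3 and 4.89 RPM and at 1.68 RPM against 13.1 and 5.86 RPM. DKK1, a secreted Wnt inhibitor, had 2.62 RPM against 27.3 and 6.35 RPM, and wt replicate 1 had 236 RPM. On the lower side, S100P, a calcium-binding protein, had 19.3 RPM against 1.56 and 7.13 RPM, with 697 RPM in wt replicate 1 and 46.0 and 60.2 RPM in the GIRK1 libraries. LRAT, which esterifies retinol, had 33.6 RPM against 8.19 and 14.2 RPM, and LMAN1, a cargo receptor of the secretory pathway, had 38.7 RPM against 11.3 and 13.8 RPM.

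Position in the genome was not used by the rule. Neighbours were taken as genes consecutive among those tested on a chromosome, so genes below the filter may lie between them. Besides COL6A1 with COL6A2 and TREM2 with TREM1, the 1 further pair of neighbouring tested genes called to the same side was ETNK2 with GOLT1A on chromosome 1, both lower. The lowest and highest medians over the genes of a chromosome, for the mean of the eGFP log2 folds, were -0.16 and 0.00.

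Near the 2-fold limit and at 50 RPM or more, the smaller fold was 2.01 for FADS2 and 2.03 for THBS1, just inside on the higher side, and 1.99 for HIST1H3G and 1.97 for SPRR1B, just outside. On the lower side no gene of that level was inside, and the nearest outside were the small nucleolar RNAs SNORA74A (1.93) and SNORA5A (1.79). Histone genes and these RNAs have near-identical copies, and how the reads of such copies were assigned is not stated. When forward reads alone and reverse reads alone also had to pass the limit, 41 higher and 31 lower genes were left.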

How the data were processed

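Expression was measured in 6 MCF10A libraries by Ion AmpliSeq Transcriptome sequencing on an Ion S5 XL. The authors mapped the reads to the amplicon panel with the Ion Torrent software and deposited, per amplicon, whole read counts, which are not normalized, and RPM, the counts scaled to the library total. RPM was recomputed here from the deposited counts. Per the labels, 2 libraries each were wt, eGFP and GIRK1, and wt replicate 1 entered alternatives only. The 10 spike-in rows had 0 reads and were left out.

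Folds were RPM of each eGFP library over wt replicate 2, with a side under 3 reads set to 3 reads for calls and rankings. For genes with 1 or 2 reads, the ratio of the reads as counted is printed with its interval. Intervals were exact (Clopper-Pearson). edgeR 4.0.16 and DESeq2 1.42.0 gave scaling factors for alternatives only. The rule was run on simulated counts in which only genes of at least 10 RPM on average were changed, with a preset spread between libraries. That run does not show how the rule performs at the low levels of most called genes or at the spread of these eGFP libraries. Gene positions came from GENCODE release 29 (GRCh38) by symbol, because amplicons lie on transcripts. The genome build of the files is not given in the sources used here. Genes were named by a rule: the 10 largest smaller folds each way, the 5 largest each way at 50 RPM or more, up to 4 called members of each list (or 2 uncalled), the genes nearest the limit, and KCNJ3, and genes named outside it are identified as chosen after their values were seen or are given as examples of a list. The members, lists and rules were chosen with earlier results of these data known. Alternatives were 13 planned and 3 added after the data were seen, covering scaling, filters, fold limit, read type and libraries left out. Results for some genes are not reported here.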

Additional observations from a re-analysis of the deposited data

Results flagged for a closer look

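KCNJ3, the gene overexpressed in the GIRK1 line, had 48 reads (19.2 RPM) in wt replicate 1, a library that the comparison did not use, while wt replicate 2 and both eGFP libraries had 0 reads. The value stood out as a signal in data outside the main measurement, above the floor that stands in for a count of 0 in the libraries used. In the same library the summed level of 16 luminal markers was 20078 RPM and that of 20 basal markers 503 RPM, and the source of the KCNJ3 reads was not tested.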

How the results depend on the processing

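Shares are of the genes tested in each setting, a number that differs between settings, with the higher calls before the lower (0.802% and 0.57% as reported, 83 and 59 genes). TMM factors (85 and 56 genes), DESeq2 size factors (87 and 57), 1 read added (86 and 53), covering reads (84 and 61) and centring each library on its median (87 and 56) moved the counts by less than 1.5 times. The shares were 1.63% and 1.11% with no filter beyond 3 reads, 0.934% and 0.246% with at least 10 reads in each library, 0.415% and 0.176% at a mean of at least 10 RPM, 2.97% and 2.76% at a fold of 1.5, and 0.106% and 0.0483% at a fold of 4. They were 0.405% and 0.451% with both eGFP libraries past both wt libraries (1341 and 1902 genes on one side at any size, against 2874 and 3666), and 3.44% and 11.2% with the mean of both wt libraries. With forward and reverse reads each past the limit, chosen after seeing the data as was centring, they were 0.396% and 0.299%. Leaving out eGFP replicate 1 gave 1.11% and 1.11% (114 genes each way), and leaving out replicate 2, which rests the call on replicate 1, gave 7.14% and 9.44% (739 and 977 genes). Over all lists, 19 distinct genes were called higher and 5 lower, a gene on several lists (such as LAMB3 or THBS1) being counted as 1. These numbers became 76 and 66 with the mean of both wt libraries, and ranged from 17 to 124 and from 8 to 51 with an eGFP library left out. With the mean of both wt libraries, the mean log2 fold changed sign in 1 of 43 called named genes (CLSPN, to -0.91) and in 12 of 52 named genes that were not called, and 53 of the 95 moved by more than the SD of the eGFP libraries. The 12 include KCNJ3, which had no reads in wt replicate 2 or in either eGFP library. Its log2 fold before the change is a ratio of floors set by depth and not a measured difference. Leaving out eGFP replicate 1 or 2 changed the sign in 5 and 4 uncalled named genes and in 0 called ones. For called genes that result was fixed by the rule, which needs both eGFP libraries on the same side, so it says nothing on their stability. The causes of these shifts were not tested. No paired analysis was possible because the compared groups share only replicate number 2. Depth limits low genes, with 3 reads at 0.585 RPM in eGFP replicate 1.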
